A study of Rattus norvegicus with 63 samples.

Results

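The nucleus accumbens of rats with short daily access to cocaine was compared with that of cocaine-naive rats, on 8 of the 63 arrays of a study of 6 brain regions. The arrays were chosen by the region and the access named in their labels. Rats pressed for intravenous cocaine on a continuous schedule, at 0.25 mg per injection, for 1 h a day (short access, 4 arrays), and the controls had 0 h (no access, 4 arrays). Another group had 6 h a day (long access, 4 arrays) and is set beside them below. The labels give 8 rats for each access group and do not give the strain, sex, age, days of access and any pooling of rats, so that a p here refers to spread among arrays, which may be partly technical. Total RNA of the dissected region was hybridised to the Affymetrix rat neurobiology array, whose probe sets, groups of short probes to 1 transcript, were chosen for genes of the nervous system. Levels are given as log2 of the signal, so that a difference of 1 is a factor of 2 between means, with a floor at 5 (a signal of 32) under which levels have no order.

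The nucleus accumbens is the ventral part of the striatum. Most of its neurons are GABAergic projection neurons (medium spiny neurons), one class with the D1 dopamine receptor, dynorphin and substance P and another with the D2 receptor, the A2a adenosine receptor and enkephalin. Cocaine blocks the dopamine transporter on axons that arrive from the ventral tegmental area, and so prolongs the action of dopamine on both classes.

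The dissection carried the transcripts of that region. The D1 receptor gene Drd1 read between 10.61 and 11.00 on the 8 arrays, against at most 8.59 on the 34 short and no access arrays of the other 5 regions. The D2 receptor gene Drd2 read at least 9.44 here and at most 8.39 elsewhere, the adenosine receptor gene Adora2a at least 10.31 against at most 8.63, and proenkephalin (Penk) at least 11.84 against at most 11.37. Tac1, the precursor of substance P, was the exception, since short access array 3 read 10.02, below the highest array of another region (10.34). Some defining markers of neighbouring regions and of input neurons were low. The dopamine transporter gene Slc6a3 read at most 7.56 against a mean of 11.25 in the ventral tegmental area, and oxytocin (Oxt) at most 5.93 against 13.09 in the lateral hypothalamus. Others read higher on the scale. Vasopressin (Avp) had a control mean of 8.06, still far under its mean of 13.21 in the lateral hypothalamus. Its median here was 8.00, against 8.24 on the arrays of the other 5 regions. Itpka, listed under cortical neurons, read 9.78 to 10.63 against a mean of 10.57 in the prefrontal cortex. Nnat, listed under hypothalamic neurons, had a control mean of 12.79. Whether tissue of other regions contributed was not tested. Dbh of noradrenergic neurons, Il1a, Il6, Tspo and Ccl3 of microglia and immune cells, Nos3 of vessels and Gal of hypothalamic neurons were at the floor on all 8 arrays.

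Of the measures that describe a whole array, 2 separated the groups. The 3′ over 5′ ratio of beta-actin, which grows as RNA or cRNA is shortened, was 0.06 to 0.15 (log2) on the no access arrays, 0.17 to 0.22 on the short access arrays and 0.20 to 0.32 on the long access arrays. Short and no access did not overlap (two-sided exact permutation test, p = 0.0286, which is the lowest p possible for groups of 4, and 0.229 when adjusted by Benjamini-Hochberg over 16 measures). The same ratios of Gapdh and hexokinase overlapped. The summed signal of 9 markers of striatal projection neurons was 20548 to 22845 with no access, 16855 to 18996 with short access and 19187 to 19898 with long access. The sum is of linear signals, so bright markers weigh most. Among them were Tac1 and Penk, with control means of 12.41 and 12.09 (log2), and Pcp4, with a median of 12.37 on the 8 arrays. Taken singly, on the brightest probe set of each gene as in the sum, 1 of the 9 markers, Tac1, had separate groups of short and no access. Drd1 had separate groups on a dimmer probe set, M35077_s_at, that is not in the sum. In bulk tissue, fewer cells of a type and less RNA per cell cannot be told apart. Of the 18 striatal markers listed, 9 are on the array, and none of them was at the floor on all arrays. Summed markers of oligodendrocytes, astrocytes, microglia, vessels, choroid plexus, cortical neurons and hypothalamic neurons overlapped between short and no access. So did the sum of dopamine synthesis and transport genes, Maoa among them. The hypothalamic sum was 7170 to 8044 with no access and 7809 to 9752 with short access. Spike-in controls read 10.88 to 11.04 and 11.01 to 11.13 (log2). These 2 had the lowest p of the measures that overlapped (exact permutation test, p = 0.0571 each, adjusted p = 0.229). Short access array 3 stood apart on 21 probe sets, against 6 to 10 for each other array of the region. The part of these measures in the differences described below was not tested, beyond the values given without that array and with the actin ratio as a covariate. Since the actin ratio did not overlap between short and no access, its part cannot be told apart from that of access. Values with this covariate rest on its slope within groups of 4 arrays and are given as description, not as corrected differences.

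No gene passed the test. Of 738 probe sets with a mean signal of at least 100, 0 had an adjusted p under 0.05 for short against no access in limma (0.0%), and the lowest adjusted p was 0.118. At an unadjusted p under 0.05 there were 75 (10.2%), with 38 higher (5.15%) and 37 lower (5.01%) with short access. The median difference was 0.03, and the median 95% confidence interval reached 0.32 to either side. Of the 738 intervals, 704 (95.4%) excluded a difference of 2-fold or more in either direction and 534 (72.4%) excluded one of 1.5-fold, so that for most probe sets tested a large difference lay outside the interval. The 4 short access arrays were all above the 4 no access arrays for 26 probe sets (3.52%) and all below them for 31 (4.2%), 57 in all (7.72%). Without short access array 3 these counts were 38 (5.15%) and 53 (7.18%), with 3 arrays against 4. With array weights in limma 9 probe sets passed, those of Pnck, Gfra2, Gnb1, Grip2, Agrn, Kcnf1 and Mt2A and 2 of Itpr1, each with the sign described below. The 8 arrays alone gave 1 (Mt2A), all 63 arrays in 1 fit gave 2 (Pnck and Gnb1), and no filter on low signals gave 2.

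**Figure D1:**
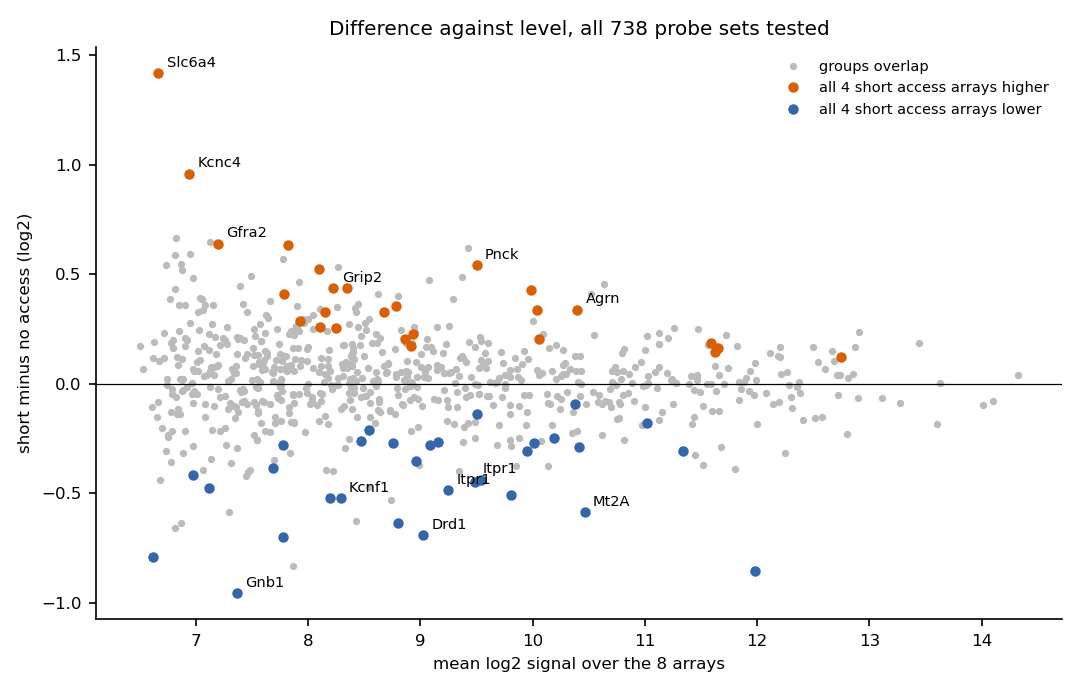
Difference between short and no access (log2, vertical) against the mean log2 signal over the 8 arrays (horizontal) for all 738 probe sets tested; orange and blue points are those whose groups of 4 arrays do not overlap, and gray points overlap. The points lie around 0 with a wider spread at low signal, and Slc6a4 (1.42) is the highest point and Gnb1 (-0.96) the lowest.

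The genes named next had the smallest p, and none of them passed. They are given by role, each with its arrays.

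The lowest p belonged to Mt2A, a metallothionein that binds zinc and copper. It read 10.75, 10.90, 10.66 and 10.72 on the no access arrays and 10.23, 10.34, 10.02 and 10.09 on the short access arrays. All 4 short access arrays were below all controls, by 0.59 ± 0.12 (SE; adjusted p = 0.118). With the actin ratio as a covariate the difference was -0.73 (adjusted p = 0.145). With long access it read 10.40, 10.67, 10.40 and 10.89, between the other groups and overlapping the controls. The small heat shock protein Hspb1 had a difference of -0.53 ± 0.17 with overlapping groups (adjusted p = 0.296), and its other 2 probe sets gave -0.20 and -0.21. Bcl2, which restrains apoptosis, read 7.39 to 7.74 with no access and 7.92 to 8.09 with short access, a difference of 0.41 ± 0.14 (adjusted p = 0.296).

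Among signalling genes, Gnb1, a beta subunit shared by heterotrimeric G proteins, was measured by 5 probe sets, of which 1 had separate groups. On AF022083_s_at the controls read 7.62, 7.91, 8.05 and 7.82 and the short access arrays 6.42, 7.30, 6.81 and 7.04. The groups were separate, with a difference of -0.96 ± 0.21 (adjusted p = 0.118). The long access arrays read 7.81, 8.54, 7.91 and 7.82, overlapping the controls and reaching above them. The other 4 Gnb1 probe sets gave -0.26, -0.26, -0.10 and -0.07, with overlapping groups, so the probe sets of this gene disagreed in size. AF022083_s_at was the dimmest of the 5, with a control mean of 7.85 against 9.07 to 10.29. Its name carries the suffix of probe sets that may also bind related transcripts, as do some of the others.

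Itpr1, the inositol trisphosphate receptor that releases calcium from the endoplasmic reticulum, had 5 probe sets, and all had a negative difference, between -0.63 and -0.11. On U38653_s_at the controls read 9.68, 9.33, 9.67 and 9.30 and the short access arrays 9.22, 8.95, 9.12 and 8.76. That is a difference of -0.48 ± 0.12 (adjusted p = 0.133) with no overlap, and long access read 8.76 to 8.99. U38812_s_at gave -0.44 ± 0.13 (adjusted p = 0.278), with 1 short access array inside the control range. Both names carry the suffix of probe sets that may also bind related transcripts. The brightest Itpr1 probe set, J05510_at, which lacks that suffix, had a control mean of 10.75 and gave -0.11 ± 0.10 with overlap.

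Pnck, a calmodulin-dependent kinase of the CaM kinase I family, lay in the other direction. The controls were tightly grouped at 9.22, 9.28, 9.18 and 9.26, and the short access arrays read 9.64, 9.99, 9.57 and 9.88. Its difference was 0.54 ± 0.14 (adjusted p = 0.133). A second probe set of Pnck gave 0.44 ± 0.20, also with separate groups, and the last gave -0.01 ± 0.42. With long access the first read 9.21 to 9.85 and overlapped both groups. Arrb2, the adaptor beta-arrestin 2 that uncouples receptors from G proteins, gave 0.36 ± 0.11 (adjusted p = 0.278) on 1 probe set, while its other 4 lay between -0.15 and 0.07.

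**Figure D2:**
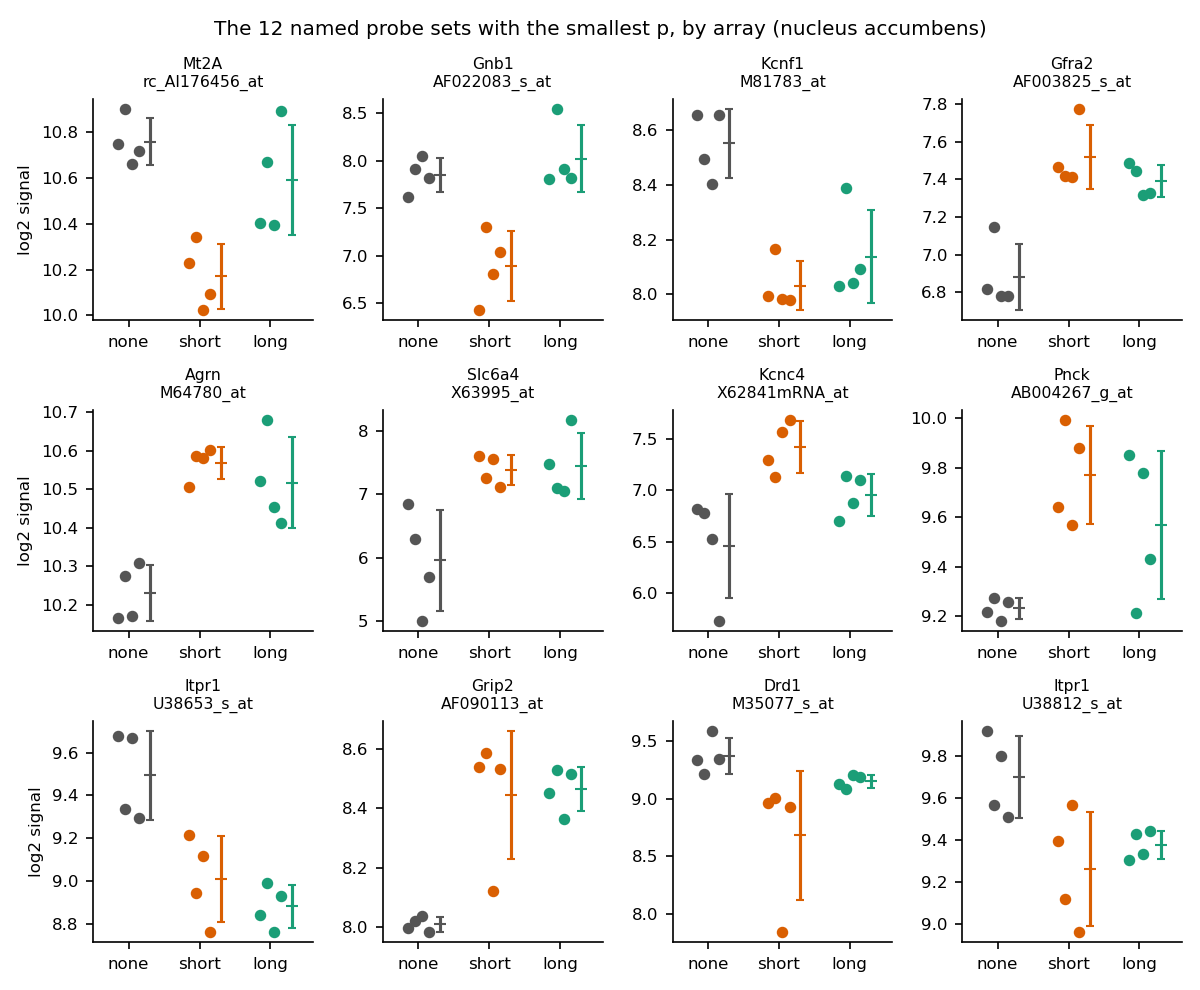
Log2 signal on each array (points) for the 12 probe sets with the smallest p for short against no access, with the mean ± SD beside each group of 4 arrays; long access is shown for comparison. The groups of short and no access are separate in 11 of the 12 panels, Itpr1 on U38812_s_at being the exception, and Drd1 on M35077_s_at has 1 short access array at 7.84, far below the other 3.

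Among channels and transporters, Kcnf1, a silent potassium channel subunit that modifies other Kv channels, read 8.66, 8.50, 8.40 and 8.66 in controls. The short access arrays read 7.99, 8.16, 7.98 and 7.98, a difference of -0.52 ± 0.12 (adjusted p = 0.118). Long access read 8.03 to 8.39, below 8.40, the lowest control. Kcnc4, the fast potassium channel Kv3.4, was near the low end of the scale, at 6.82, 6.78, 6.52 and 5.72 in controls against 7.30, 7.13, 7.57 and 7.69, a difference of 0.96 ± 0.24 (adjusted p = 0.129). The control mean of 6.46 is under the signal of 100 asked of the probe sets tested, so Kcnc4 was tested only through the access groups. Abcc9, the sulfonylurea receptor subunit of ATP-sensitive potassium channels, gave 0.52 ± 0.16 (adjusted p = 0.278).

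Slc6a4 encodes the serotonin transporter, whose mRNA is made mainly by neurons of the raphe. The controls read 6.84, 6.30, 5.00 and 5.70, where 5.00 is the floor, and the short access arrays 7.60, 7.25, 7.55 and 7.11. The difference was 1.42 ± 0.35 (adjusted p = 0.128), and the long access arrays, at 7.05 to 8.17, were also above all controls. The size of this difference is set by control levels close to the floor and is not a measured fold. The control mean of 5.96 is under the signal of 100, so Slc6a4 entered the test only through the short and long access arrays, with means of 7.38 and 7.45.

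Among synaptic and matrix genes, Agrn, the proteoglycan agrin that organises synapses, had a small difference with little spread. The controls read 10.16, 10.27, 10.17 and 10.31 and the short access arrays 10.51, 10.59, 10.58 and 10.60, a difference of 0.34 ± 0.08 (adjusted p = 0.128). Its second probe set gave 0.08 ± 0.12. Grip2, a scaffold that binds AMPA receptors, read 8.00, 8.02, 8.04 and 7.98 in controls and 8.54, 8.59, 8.12 and 8.53 with short access, a difference of 0.44 ± 0.12 (adjusted p = 0.146), and its second probe set gave 0.33 ± 0.12 with overlap. Long access gave 8.37 to 8.53 on the first, above all controls as well. Gfra2, the receptor of the growth factor neurturin, read 6.82, 7.15, 6.78 and 6.78 in controls and 7.47, 7.42, 7.42 and 7.78 with short access. Its difference was 0.64 ± 0.15 (adjusted p = 0.118), and its other 2 probe sets gave 0.55 and 0.33 with overlap.

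Map2, which stabilises dendritic microtubules, had 4 of 5 probe sets with a negative difference. X53455cds_s_at gave -0.51 ± 0.17 (adjusted p = 0.296) and -0.33 without short access array 3, and X17682_s_at gave -0.44 ± 0.19 (adjusted p = 0.391), both with separate groups. The brightest probe set, U30938_at, was the positive one, at 0.22 ± 0.12 with overlap. Among the 20 smallest p were also M96375_s_at (-0.64 ± 0.21) and U75397UTR#1_s_at (-0.28 ± 0.09), which are unnamed here.

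The genes that define the projection neurons were examined whatever their p. Drd1 had 3 probe sets with negative differences. On M35077_s_at the controls read 9.34, 9.22, 9.59 and 9.35 and the short access arrays 8.96, 9.00, 7.84 and 8.93, a difference of -0.69 ± 0.21 (adjusted p = 0.278). Short access array 3 was far below its group there but not on S46131mRNA_s_at, where the short access arrays read 10.61, 10.62, 10.81 and 10.66 against 10.87, 10.72, 11.00 and 10.74. The difference on the latter was -0.16 ± 0.09 (adjusted p = 0.550), with a 95% interval from -0.35 to 0.03. Without array 3 the 2 probe sets gave -0.41 ± 0.10 (adjusted p = 0.129) and -0.21 ± 0.09 (adjusted p = 0.439).

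Tac1 behaved likewise on its brighter probe set, M15191_s_at. The controls read 12.46, 12.33, 12.46 and 12.40 and the short access arrays 12.16, 12.13, 10.02 and 11.91, a difference of -0.85 ± 0.34 (adjusted p = 0.367) that became -0.34 ± 0.09 (adjusted p = 0.129) without array 3. The short access arrays used were below all controls in either case. On X56306_s_at they read 10.35, 10.43, 10.05 and 10.24 against 10.57, 10.56, 10.63 and 10.46, a difference of -0.29 ± 0.09 (adjusted p = 0.296). With long access M15191_s_at read 11.90 to 12.17, also below all controls.

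The markers of the D2 class are given next, with Pdyn. Adora2a gave -0.23 ± 0.10 (95% interval -0.45 to -0.02, adjusted p = 0.434) with overlap, Drd2 gave -0.28 ± 0.16 (-0.64 to 0.07) and Penk gave -0.18 ± 0.12 (-0.44 to 0.07). Prodynorphin (Pdyn), the opioid precursor of the D1 class, gave -0.05 ± 0.13 (-0.33 to 0.24). The intervals of Penk and Pdyn exclude a difference of 1.5-fold in either direction. With the actin ratio as a covariate Tac1 gave -0.95 on M15191_s_at and -0.19 on X56306_s_at, Drd1 -0.72 on M35077_s_at and -0.15 on S46131mRNA_s_at, Penk -0.34 and Adora2a -0.18. Egr1, an immediate early gene of neuronal activity, gave -0.15 ± 0.11 (-0.39 to 0.09), and its other 3 probe sets lay between -0.19 and 0.01.

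**Figure D3:**
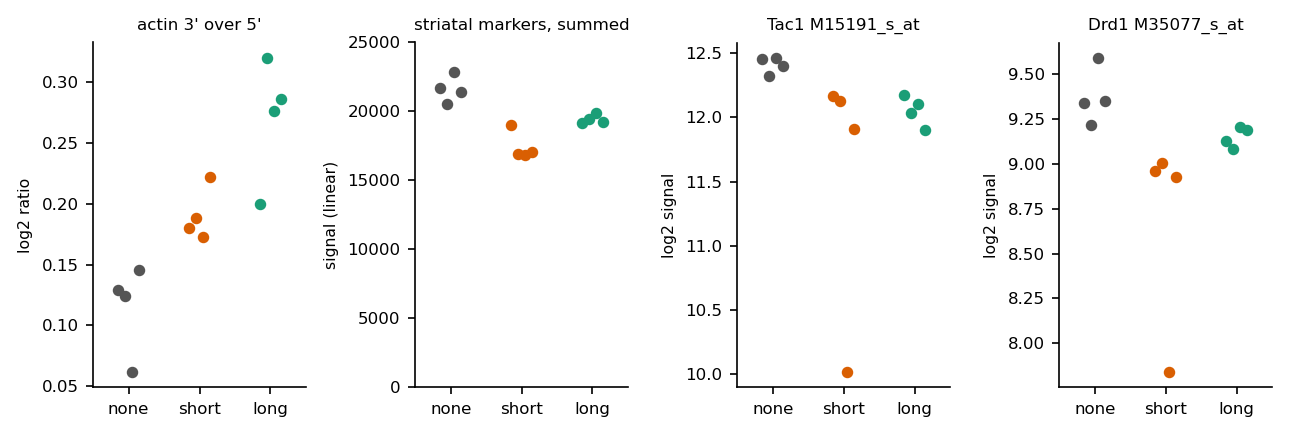
Measures of the 12 nucleus accumbens arrays by access: the 3′ over 5′ ratio of beta-actin (log2), the summed linear signal of 9 striatal projection neuron markers (axis from 0), and the log2 signal of Tac1 on M15191_s_at and of Drd1 on M35077_s_at, each point being 1 array. The actin ratio is higher and the marker sum lower on all 4 short access arrays than on the controls, and 1 short access array (array 3) lies far below the rest for Tac1 (10.02) and Drd1 (7.84).

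The same genes were then described as groups, in 29 lists of genes by function or cell type with 1 probe set per gene. In each list 0 members passed the test. Over all 453 genes tested this way 0 passed (0.0%), 18 had separate groups with short access higher (3.97%) and 18 with short access lower (3.97%), and the median difference was 0.03.

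The markers of striatal projection neurons stood lowest as a group, with all 9 of 9 tested at a negative difference and a median of -0.18. One of them, Tac1, had groups that did not overlap. Without short access array 3 again 9 of 9 were negative, with a median of -0.21, and values as deposited or after quantile normalization gave 9 of 9 as well. This did not hold in every setting, since Pdyn rose to 0.067 when another single array was left out. This list shares Tac1, Penk, Pdyn, Drd1, Drd2 and Adora2a with other lists. The opioid and tachykinin peptides and receptors had 7 of 7 negative with a median of -0.12, which was 6 of 7 and -0.05 without array 3. Dopamine receptors and their striatal signalling partners had 4 of 5 negative with a median of -0.16, which was 3 of 5 and -0.21 without array 3. The summed marker level given above is that of the same 9 striatal markers. The actin ratio moved with the access groups too, and its part in these 3 lists was not tested.

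Calcium signalling genes (calmodulin, CaM kinases and calcium-binding proteins) had 14 of 19 negative and a median of -0.11. Camkk1, the kinase that activates CaM kinases I and IV, read 10.01 to 10.16 in controls and 9.47 to 9.97 with short access, a difference of -0.31 ± 0.11, or -0.20 without array 3. Itpkb, which phosphorylates inositol trisphosphate, gave -0.41 ± 0.17 with separate groups, and Atp2b1, a plasma membrane calcium pump, gave -0.38 ± 0.14 with overlap. Genes of cyclic AMP, protein kinase C and G protein signalling were evenly placed, with 7 of 14 negative and a median of 0.03. Within that list Prkcz, an atypical protein kinase C, gave -0.27 ± 0.11 (-0.046 with the actin ratio as a covariate), and Prkcb gave -0.29, -0.25 and -0.16 on its 3 probe sets, the first being -0.13 without array 3. The MAP kinase and phosphoinositide kinase list had 5 of 10 negative and a median of -0.02, with 4 members whose groups were separate. Mapk14, the stress kinase p38 alpha, was positive on all 5 of its tested probe sets, between 0.09 and 0.47. Mapk9 gave 0.25 ± 0.14 and the tyrosine kinase Fyn -0.09 ± 0.07. Pik3r1, a regulatory subunit of phosphoinositide 3-kinase read close to the low end of the scale, gave -0.79 ± 0.36. The short access mean of Pik3r1, 6.23, is under the signal asked of the probe sets tested. Pik3r1 therefore entered the test only through the no and long access arrays, with means of 7.02 and 6.96.

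Receptors for the fast transmitters had no common direction. Subunits of AMPA, NMDA and kainate receptors had 8 of 14 negative and a median of -0.07. Gria3, an AMPA receptor subunit, gave -0.38 ± 0.19 (-0.25 without array 3) and Grin2a, an NMDA receptor subunit, -0.70 ± 0.38, each with separate groups, while the kainate receptor subunit Grik2 gave 0.31 ± 0.16. Metabotropic glutamate receptors and scaffolds had 4 of 7 positive and a median of 0.07. Grm3 and Grm5 gave -0.18 ± 0.10 and -0.21 ± 0.15 and Grm7 gave 0.26 ± 0.12, all with separate groups. The GABA list had 9 of 15 negative and a median of -0.07, with Gabra2, a GABA-A receptor subunit, at -0.27 ± 0.14 and separate groups and Gabrd at -0.19 ± 0.10.

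Genes of glutamate uptake had 3 of 5 negative and a median of -0.03, with the glial transporter Slc1a2 at -0.15 ± 0.20 and glutamine synthetase (Glul) at -0.07 ± 0.11. Acetylcholine and serotonin receptors and transporters had 7 of 12 positive and a median of 0.04. Beside Slc6a4, the serotonin receptor Htr1d had separate groups, at -0.28 ± 0.15. Adrenergic and adenosine receptors had 5 of 8 positive and a median of 0.08. Adora2b gave -0.66 ± 0.24 and the beta 1 receptor Adrb1 -0.47 ± 0.18 (-0.30 without array 3), both near the low end of the scale. The short and long access means of Adora2b, 6.49 and 6.63, are under the signal asked of the probe sets tested. Adora2b therefore entered the test only through the no access arrays, with a mean of 7.15. Of the other neuropeptides and their receptors, 4 of 8 were negative and the median was -0.01. Cck gave -0.83 ± 0.45 (-0.12 with the actin ratio as a covariate), and its short access arrays were spread from 6.62 to 8.21.

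Potassium channels had 11 of 20 positive and a median of 0.03. Kcnk1, a leak channel, gave -0.35 ± 0.12, and Kcnd2, the A-type channel Kv4.2 of dendrites, -0.27 ± 0.10, both with separate groups and opposite in sign to Kcnc4. Sodium, calcium and chloride channels had 10 of 18 positive and a median of 0.09, with the sodium channel Scn1a at 0.64 ± 0.25 and separate groups and the L-type calcium channel Cacna1c at 0.44 ± 0.15 with overlap. Synaptic vesicle and release genes had 9 of 17 positive and a median of 0.08. Stx7, an endosomal syntaxin, gave 0.20 ± 0.08, with controls between 8.73 and 8.77 and short access arrays between 8.89 and 9.02, and synaptophysin (Syp) gave 0.14 ± 0.07. Stx7 was 1 of 2 probe sets that passed when no filter on low signals was set.

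Neurotrophins, growth factors and their receptors had 17 of 21 positive and a median of 0.08, with Gfra2 as the one member with separate groups. Without array 3 this was 13 of 21 and a median of 0.06. Heat shock, antioxidant and apoptosis genes had 13 of 17 positive and a median of 0.13, adhesion, guidance and matrix genes 11 of 15 and 0.02, and cytoskeletal genes 8 of 10 and 0.04. Of all 738 probe sets tested 56.8% were positive, and 52.4% after quantile normalization, which gave 15 of 21 positive for the growth factor list, 12 of 17 for heat shock, 8 of 15 for adhesion and 6 of 10 for the cytoskeleton. Without array 3 the heat shock list had 11 of 17 positive. Gap43, a protein of growing axons, gave 0.19 ± 0.15 with separate groups. Activity-induced genes had 6 of 10 negative and a median of -0.06, with the nuclear receptor Nr4a3 at -0.31 ± 0.16 and the secreted pentraxin Nptx2 at -0.36 ± 0.22 (-0.0080 with the actin ratio as a covariate), both with overlap.

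Glial and other non-neuronal markers were listed by cell type. Oligodendrocyte markers had a median of 0.03 over 6 genes, astrocyte markers 0.04 over 9, microglia and immune markers 0.06 over 3, vessel markers -0.07 over 4, and choroid plexus markers -0.05 over 3. Without short access array 3 the vessel markers had a median of -0.20, with 3 of 4 negative. No gene of these lists had separate groups on its brightest probe set. Within them the transcription factor Sox10 gave 0.21 ± 0.10 and myelin basic protein (Mbp) -0.18 ± 0.13, the ATPase subunit Atp1b2 0.23 ± 0.09 (its other probe set, D90048exon_g_at, gave 0.43 ± 0.15 with separate groups), beta 2 microglobulin (B2m) 0.06 ± 0.08, and the transporter Slco1a4 -0.40 ± 0.16. The choroid plexus genes Igf2 and Igfbp2 varied among arrays of the same group, Igf2 between 9.11 and 10.54 in controls and between 9.39 and 10.67 with short access. Markers of cortical neurons had a median of -0.01 over 5 genes and of hypothalamic neurons 0.09 over 2. The list of dopamine synthesis and transport had a median of 0.04 over 3 genes. Among these were the monoamine oxidases Maoa and Maob, so that median does not describe dopamine neurons alone.

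**Figure D4:**
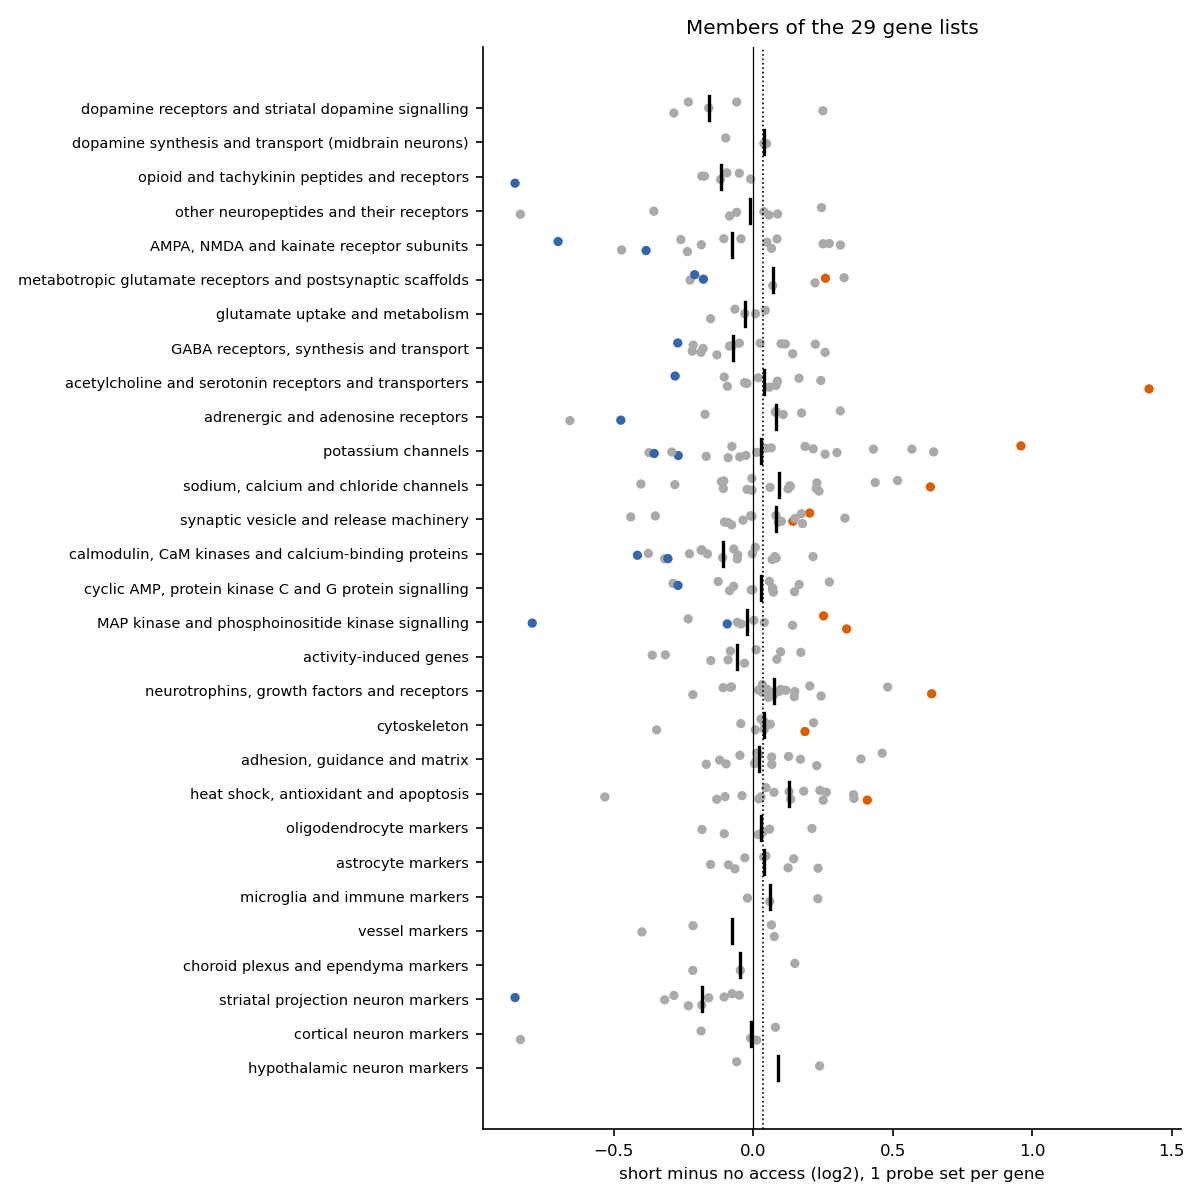
Difference between short and no access (log2, horizontal) of each tested member (points, 1 probe set per gene) of the 29 gene lists (rows), with the list's median (black bar) and the median over all 453 genes (dotted line); colored points have groups of 4 arrays that do not overlap. All 9 striatal projection neuron markers and all 7 opioid and tachykinin genes lie below 0, and the other lists straddle it.

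The difference in the nucleus accumbens was set against the mean difference of the other 5 regions in 1 fit of all 63 arrays. Of 858 probe sets, 0 passed in limma (0.0%), 29 had an unadjusted p under 0.05 (3.38%), and the lowest adjusted p was 0.650. Within their own fits, short against no access had 0 of 732 probe sets past the threshold in the amygdala (0.0%) and 0 of 680 in the medial prefrontal cortex (0.0%). The septum had 14 of 736 (1.9%), the ventral tegmental area 6 of 722 (0.831%) and the lateral hypothalamus 161 of 718 (22.4%). Each access group had 4 arrays in amygdala and lateral hypothalamus, and 3 in septum, ventral tegmental area and prefrontal cortex.

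The smallest p for a difference between regions belonged to Pnck, at 0.54 ± 0.11 in the accumbens against a mean of 0.11 elsewhere (difference 0.43 ± 0.13, adjusted p = 0.650). Kcnc4 followed, at 0.96 against a mean of 0.01 (difference 0.94 ± 0.28, adjusted p = 0.650). Bcan, the matrix proteoglycan brevican, was at -0.17 here and at 0.13 elsewhere, and Camkk1 at -0.31 here and 0.04 elsewhere (adjusted p = 0.752 for both). On values as deposited and after quantile normalization, 2 Drd1 probe sets passed this comparison, M35077_s_at and S46131mRNA_r_at. In the values used here M35077_s_at gave a difference of -0.64 ± 0.24 between regions (adjusted p = 1.0), and the brightest Drd1 probe set, S46131mRNA_s_at, gave 0.12 ± 0.26, with -0.16 here and -0.28 elsewhere.

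Gnb1 on AF022083_s_at was low with short access in the other regions too. The amygdala gave -0.41 ± 0.21 (adjusted p = 0.559), the lateral hypothalamus -0.85 ± 0.21 (adjusted p = 0.00491), the septum -0.92 ± 0.24 (0.317), the ventral tegmental area -0.96 ± 0.24 (0.103) and the prefrontal cortex -0.68 ± 0.24 (0.881), so that of these the lateral hypothalamus alone passed. The groups did not overlap in 5 of the 6 regions, the amygdala being the exception. Septum, ventral tegmental area and prefrontal cortex had 3 arrays per group and the other regions 4. Groups of 3 are separate by chance more often than groups of 4, so these regions are not on equal terms. Short access arrays all below the controls were found for 1.09% of all tested probe sets in amygdala, 14.9% in lateral hypothalamus, 9.78% in septum, 7.06% in ventral tegmental area and 1.32% in prefrontal cortex. The accumbens differed from the mean of the other 5 by -0.19 ± 0.23 (adjusted p = 1.0). Mt2A was also negative in all 6 regions, between -0.59 and -0.13, with an SE of 0.35 to 0.40 in that fit.

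**Figure D5:**
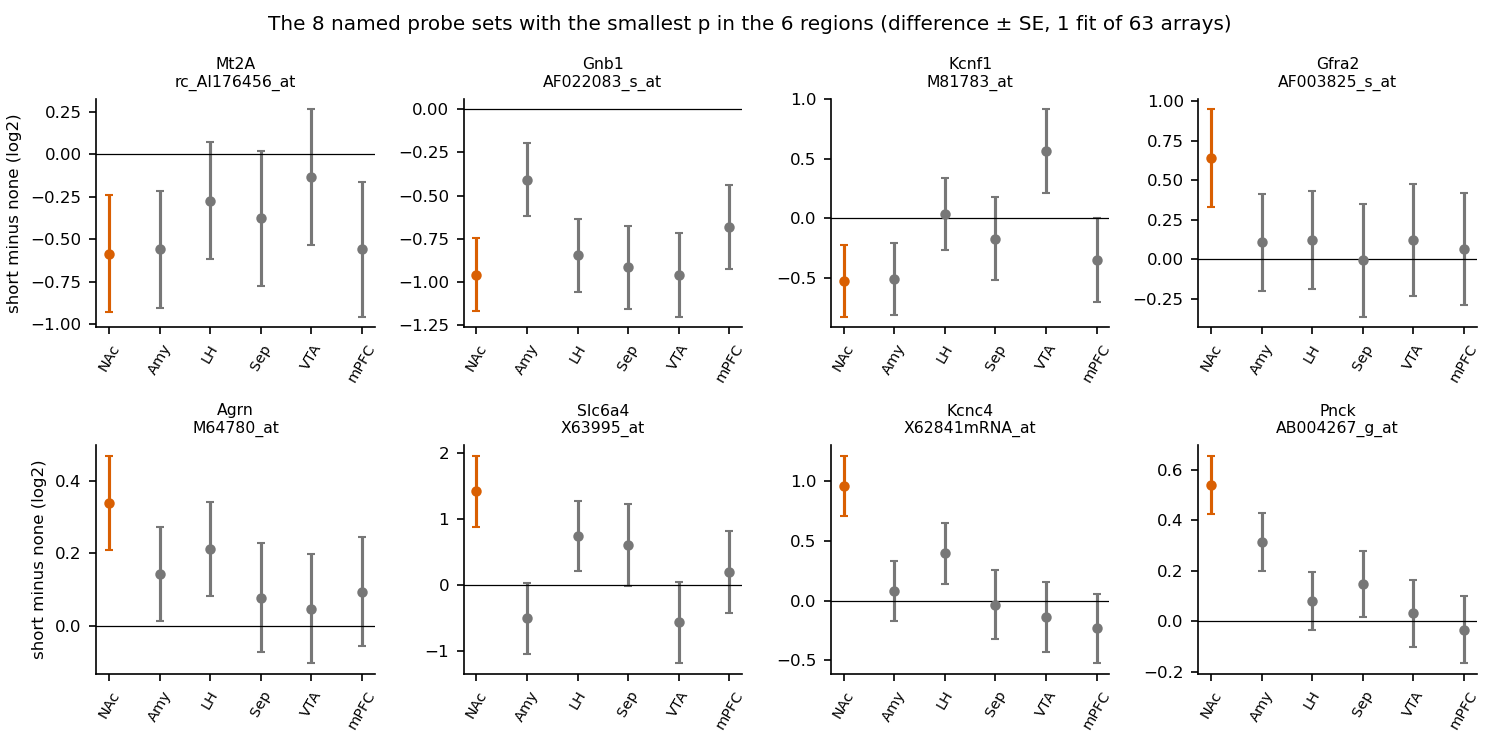
Difference between short and no access (log2, vertical, ± SE from 1 fit of 63 arrays) in the 6 regions for the 8 probe sets with the smallest p in the nucleus accumbens (orange); NAc is the nucleus accumbens, Amy the amygdala, LH the lateral hypothalamus, Sep the septum, VTA the ventral tegmental area and mPFC the medial prefrontal cortex. Gnb1 lies below 0 in all 6 regions, between -0.96 and -0.41, whereas Gfra2 and Kcnc4 are farther from 0 in the accumbens (0.64 and 0.96) than elsewhere, differences that did not pass the test.

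Long access was set against short access in the same 12 arrays. Of 738 probe sets, 0 passed in limma (0.0%) and 71 had an unadjusted p under 0.05 (9.62%). The lowest adjusted p was that of Gnb1 on AF022083_s_at, which was 1.13 ± 0.21 higher with long than with short access (adjusted p = 0.0594), followed by Cx3cl1, the neuronal chemokine fractalkine, at -0.53 ± 0.14, Mt2A at 0.42 ± 0.12 and the adhesion molecule Ncam1 at -0.42 ± 0.12 (adjusted p = 0.361 for each).

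Long and short access were compared with the same control arrays, so their values are only placed side by side. Short and long access gave -0.59 and -0.17 for Mt2A and -0.96 and 0.17 for Gnb1, where long access lay nearer to the controls. They gave -0.52 and -0.42 for Kcnf1, 0.64 and 0.51 for Gfra2, 0.34 and 0.29 for Agrn, 0.44 and 0.46 for Grip2 and -0.48 and -0.61 for Itpr1 on U38653_s_at, where both access groups lay on one side of the controls. For Penk they were -0.18 and 0.23. Penk was 0.42 ± 0.12 higher with long than with short access (adjusted p = 0.361), with overlapping groups.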

How the data were processed

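The authors deposited 1 linear intensity (signal) for each probe set and array, computed by MAS5, per the submitters' processing notes; its version and scaling target are not given in the sources used here. Arrays have no depth, and their number limits the precision. No 2 arrays held identical values, and the highest correlation between any 2 was 0.979. Of 1322 probe sets, 59 controls were left out of tests; of the 1263 others 1137 had 1 gene symbol in the platform annotation, 8 several and 118 none, and 1132 were matched to RefSeq by Entrez identifier, which changed 0 symbols. The suffix of probe sets that may bind related transcripts is carried by 565.

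Arrays were brought to a 2% trimmed mean of 500, with signals under 32 raised to it before taking log2. Probe sets with a mean log2 signal over the 12 nucleus accumbens arrays of at least that of 100 were tested, with 3 access groups in 1 limma 3.58.1 fit (R 4.3.3, eBayes with an intensity trend), Benjamini-Hochberg adjustment and a threshold of 0.05. The comparison with other regions used 63 arrays in 18 groups, for probe sets at that level in at least 1 region. ± is the SE unless stated. The fit was tested on simulated data.

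Genes were named by rule: the 20 smallest p, since fewer than 10 passed; 2 members of each list by p, with those whose groups did not overlap; Drd1, Drd2, Penk, Pdyn, Tac1, Adora2a and Egr1 always; and 4 for each other comparison. For a list, a gene is represented by its brightest probe set. Promoters were to be shown for genes that passed, of which there were 0. The comparison, the lists and the members were chosen with earlier results of these data known.
The actin covariate and the list values without short access array 3 were added after the data were seen. Arrays were left out in turn, and other scalings, filters, floors, weights and blocks were tried; the closing section gives their effect.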

Additional observations from a re-analysis of the deposited data

Results flagged for a closer look

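Of 196 groups of 4 values examined, among the named probe sets and the measures of the arrays, 17 held an array whose gap to its neighbour took a larger share of the group's range than Dixon's 95% critical value for 4 samples allows. Chance flags about 1 in 20 such groups.

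Short access array 3 was the lone lowest of its group for Drd1 on M35077_s_at (0.934 of the range), Tac1 on M15191_s_at (0.881) and Grip2 on AF090113_at (0.885). For Drd1 and Tac1 the values without it are given above. For Grip2 the other 3 short access arrays read 8.53 to 8.59. Other short access arrays stood alone for Kcnf1 (array 2 highest, 0.924), Gfra2 on AF003825_s_at (array 4 highest, 0.854), Gabra2 (array 4 lowest, 0.864) and the summed striatal projection neuron markers (array 1 highest, 0.898).

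No access array 2 was the lone highest for Gfra2 (0.888) and Maoa (0.886), array 1 the highest for Kcnd2 (0.925) and the lowest for Stx7 (0.911), and array 4 the highest for Grip2 on AF090113_g_at (0.831) and the lowest for Atp1b2 (0.876). No access array 3 was the lone lowest for Nr4a3 (0.868), Mapk9 (0.908), Gap43 (0.970) and Glul (0.856).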

How the results depend on the processing

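For short against no access 0 probe sets passed under 12 of 16 kinds of alternative, among them other scalings (lowest adjusted p = 0.0526 with quantile normalization). The exceptions were no filter on low signals with 2 (Stx7 and L31619_at), array weights with 9, the 8 arrays alone with 1 (Mt2A, adjusted p = 0.0486) and all 63 arrays with 2 (Pnck and Gnb1). Leaving out any 1 array gave 0. For the difference from other regions the count was 2 on deposited values and 2 after quantile normalization (Drd1 each time), 1 with array weights (Pnck) and otherwise 0. For long against short access it was 2 without a filter (AF031430_at and L31619_at), 1 with all 63 arrays and 0 to 1 over single arrays left out, the 1 being Gnb1 without short access array 2. The cause of these differences was not tested.

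Deviations of same-numbered arrays of no and short access correlated at 0.08, -0.07, 0.06 and 0.22, and 2 of 4 correlated best with their own number. These values do not settle whether the numbers pair the arrays, and they cannot show a trait shared by several numbers. The summed choroid plexus markers split both groups by number, at 1640 to 1756 on arrays 1 and 3 and 2896 to 3243 on arrays 2 and 4, while with long access arrays 1 and 3 were the higher. Summed vessel markers with short access were 2397 and 2634 on arrays 1 and 3 and 1838 and 1770 on arrays 2 and 4. A replicate block gave 0 for short against no access, 0 for the difference from other regions and 1 for long against short access (Gnb1, adjusted p = 0.0191).

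Small differences turned sign. Over single arrays left out, Pdyn ranged from -0.17 to 0.067, B2m from -0.0056 to 0.10, Glul from -0.15 to 0.022, Igfbp2 from -0.48 to 0.069, Igf2 from -0.10 to 0.38, Maob from -0.018 to 0.081 and Avp from -0.21 to 0.12. Array weights gave 0.030 for Igfbp2. With the actin ratio as a covariate, the values were 0.10 for Slc2a1, -0.17 for Ptgs2, 0.11 for Slc1a2, 0.0016 for Glul, -0.14 for Maob and -0.022 for Cx3cl1. That covariate kept the sign but moved others by over 1.5 times, to 0.11 for Mapk14, 0.090 for Mapk9, -0.046 for Gabra2, -0.19 for Slco1a4, -0.74 for Gria3, -1.23 for Grin2a, -0.73 for Adrb1, -0.47 for Htr1d and -0.42 for Grm5. The actin ratio did not overlap between short and no access, so values with that covariate are description, not corrected differences. The number of arrays and signals near the floor limit all values.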

Other observations

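The low Gnb1 signal with short access rested on 1 of 5 probe sets in most regions. In the lateral hypothalamus all 5 were below the controls with no overlap, by -0.99 to -0.85 with short access, and by -1.25 to -0.42 with long access. AF022083_s_at gave -0.92 in the septum, -0.96 in ventral tegmental area and -0.68 in prefrontal cortex with short access, while the other 4 gave -0.30 to 0.22 there. With long access the same probe set gave 0.17 in the accumbens, 0.15 in the amygdala, -0.42 in lateral hypothalamus, -0.17 in septum, -0.084 in ventral tegmental area and -0.42 in prefrontal cortex. The probe set was chosen after its values were seen, and what sets it apart from the other 4 was not tested.

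Igf2 and Igfbp2 each split the arrays of an access group into a higher and a lower pair. In controls arrays 2 and 4 read 10.54 and 10.40 for Igf2 and 9.88 and 9.69 for Igfbp2, and arrays 1 and 3 read 9.11 and 9.36, and 8.25 and 8.30. With short access arrays 2 and 4 read 10.67 and 10.46 for Igf2 and 9.41 and 9.42 for Igfbp2, against 9.49 and 9.39, and 8.14 and 8.29, on arrays 1 and 3. The summed choroid plexus and ependyma markers were 1640 to 1756 on arrays 1 and 3 of both groups and 2896 to 3243 on arrays 2 and 4. With long access arrays 1 and 3 were the higher pair for Igf2 (10.18 and 10.10) and arrays 2 and 4 the lower (9.54 and 9.42). Both genes are known to be expressed by choroid plexus and meninges.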
